A study of Mus musculus with 32 samples.

Results

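The genes described here are 8 sodium channel genes of the mouse frontal cortex, taken by name from the 23958 genes of the deposited count table: the pore-forming alpha subunits Scn1a, Scn2a, Scn3a, Scn8a and Scn7a and the beta subunits Scn2b, Scn3b and Scn4b. They were measured in the prelimbic and infralimbic frontal cortex of 32 mice inoculated with the gut microbiota of primate donors, by a tag-based method that reads the 3′ ends of polyadenylated RNA. The donors were humans (12 mice, 4 in batch A and 8 in batch B), squirrel monkeys (8 mice, 4 each in batches C and D) and macaques (12 mice, 5 in batch E and 7 in batch F). All groups received a primate microbiota, and the labels describe no uninoculated mice. The sources used here do not give the strain, age or sex of the mice, nor the number of donors.

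Scn7a was picked for its difference from the macaque group, and the other 7 genes were listed beside it with those results known. Its human-macaque and squirrel monkey-macaque values chose the list, so the values of all 8 genes in these comparisons are given as a description, with no test. Tests of these genes are given for what that choice did not use. These are batches of the same donor species and the covariation of the genes between mice of the same donor group. Human against squirrel monkey mice are tested too, but this comparison shares both its groups with those that chose the list. For genes of related lists, adjusted p-values against macaque mice describe which genes were called. They are no independent test, since those lists were also chosen with earlier results known.

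Voltage-gated sodium channels open on depolarization and carry the upstroke of the action potential. Each consists of a large alpha subunit that forms the pore and of beta subunits that alter gating, anchor the channel and act in cell adhesion. In the cortex the channels are dense at the axon initial segment, where the spike starts. Scn1a encodes Nav1.1, known for its role in inhibitory interneurons and for its loss in Dravet syndrome. Scn2a encodes Nav1.2 of excitatory neurons and of early axon initial segments, Scn3a the mainly embryonic Nav1.3, and Scn8a Nav1.6, the main channel of mature initial segments and nodes of Ranvier. Scn7a stands apart in the family: its product Nax lacks the voltage dependence of the others and is known as a sensor of extracellular sodium in circumventricular organs. Scn2b and Scn4b encode beta subunits linked to alpha subunits by a disulfide bond, and Scn3b encodes one that binds without it.

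In the GENCODE M21 annotation, Scn3a, Scn2a, Scn1a and Scn7a lie in this order on chromosome 2, with Csrnp3, Galnt3 and Ttc21b between Scn2a and Scn1a and with Scn9a between Scn1a and Scn7a. Scn3b, Scn2b and Scn4b lie on chromosome 9 and Scn8a on chromosome 15. None of the 8 shared its last 300 bases with another gene. Scn1a, Scn3a, Scn2b and Scn3b overlap unnamed gene models on the opposite strand, so that their counts are uncertain where counting ignored strand. Scn7a, Scn2a, Scn8a and Scn4b overlap no such gene.

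Promoter windows of 250 bases upstream of an annotated start were found for 6 of the 8 genes in RefSeq (build GRCm38.p6). They are shown for Scn7a, the tested gene that differed most between donor groups, for Scn1a of the same strand and cluster, for Scn2a, the gene in both pairs that varied together, and for Scn4b, the gene with a single very high mouse. Capitals mark a GC box (GGGCGG on either strand, here CCGCCC) in Scn7a and a TATA box (TATAAA) in Scn2a.
Scn7a, chr2:66784911-66785160, minus strand: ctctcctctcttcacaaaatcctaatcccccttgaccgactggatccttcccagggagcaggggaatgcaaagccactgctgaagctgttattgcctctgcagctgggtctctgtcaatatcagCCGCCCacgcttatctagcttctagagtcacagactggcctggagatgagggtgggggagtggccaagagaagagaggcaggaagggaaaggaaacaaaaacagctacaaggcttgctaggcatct
Scn1a, chr2:66440838-66441087, minus strand: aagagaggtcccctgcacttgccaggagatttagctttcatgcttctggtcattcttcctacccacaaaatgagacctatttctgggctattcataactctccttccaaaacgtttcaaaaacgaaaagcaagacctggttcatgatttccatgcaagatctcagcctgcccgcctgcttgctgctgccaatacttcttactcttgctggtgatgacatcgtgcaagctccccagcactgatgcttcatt
Scn2a, chr2:65668436-65668685, plus strand: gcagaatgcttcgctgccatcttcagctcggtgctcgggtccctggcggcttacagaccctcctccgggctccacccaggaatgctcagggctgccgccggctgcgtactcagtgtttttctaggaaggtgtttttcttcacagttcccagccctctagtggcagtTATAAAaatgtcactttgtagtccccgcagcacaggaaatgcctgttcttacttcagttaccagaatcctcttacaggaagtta
Scn4b, chr9:45138374-45138623, plus strand: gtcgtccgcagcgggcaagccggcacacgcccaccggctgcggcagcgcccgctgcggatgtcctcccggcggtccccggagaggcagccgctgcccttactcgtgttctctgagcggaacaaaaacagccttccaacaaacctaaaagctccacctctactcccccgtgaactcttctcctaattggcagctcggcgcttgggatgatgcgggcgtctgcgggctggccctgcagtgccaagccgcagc

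The windows differed in CpG content. Scn7a held 3 CpG sites, Scn1a 4, Scn2a 9 and Scn4b 23, against a median of 6 over 32851 promoter windows of the same length. Scn2a has another annotated start, whose window at chr2:65620519-65620768 held 2 CpG sites, was 29.6% G and C, and had no TATA match. A GC box occurs in 32.7% of those windows and a TATA box in 12.4%, so neither match is rare. Of the other motifs searched on both strands, the cAMP response element TGACGTCA (1.55% of windows), the E-box CACGTG (6.02%), the RE1 half-site TTCAGCACC (0.301%) and the MEF2 site (0.14%) had no match in the windows of any of the 6 genes.

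The total was 1035036 to 2089308 counts per mouse, with a median of 1534710.5, so that 5 CPM (the level unit used throughout, a count scaled to library size) corresponded to about 7.67 counts. Each batch held mice of 1 donor species, and libraries of different donor species stood in different plate columns, so donor species, batch and plate column cannot be told apart in any comparison between donor groups. Excitatory neuron markers (8 genes, Slc17a7 and Camk2a among them) summed to 3511 to 5370 CPM in every human, squirrel monkey and macaque mouse, and markers of striatum (12 genes) summed to 401 to 1089 CPM. Of the 8 sodium channel genes, 7 passed the filter on low counts, and Scn4b did not.

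Scn7a had the largest difference between donor groups of the 7 tested genes, and of these also the largest spread within them. In the macaque mice of batch E its level was 13.8, 13.2, 22.5, 3.54 and 21.3 CPM, and in batch F the lowest, median and highest of 7 mice were 0.973, 24.7 and 30.5 CPM. In the human mice of batch A it was 1.82, 8.83, 9.05 and 2.997 CPM, and in batch B it ran from 1.69 over a median of 4.55 to 16.5 CPM in 8 mice. In the squirrel monkey mice it was 5.71, 3.15, 3.94 and 4.53 CPM in batch C and 5.99, 12.8, 0.661 and 3.37 CPM in batch D.

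The groups overlapped. None of the 12 human and none of the 8 squirrel monkey mice lay above the macaque median of 18.5 CPM, but macaque mice 4, 6 and 10 lay at 3.54, 0.973 and 4.89 CPM, among the levels of the other groups. Of the macaque mice, 6 lay below the highest human mouse and 3 below the highest squirrel monkey mouse. These levels rest on few counts, 137 in all human mice, 54 in all squirrel monkey mice and 299 in all macaque mice, and 5, 4 and 2 mice of the respective groups had 5 counts or fewer. Counting error alone gave macaque mouse 6, with 1 count, an exact Poisson 95% interval of 0.0246 to 5.42 CPM, and macaque mouse 9, with 47 counts, one of 22.4 to 40.6 CPM.

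**Figure D1:**
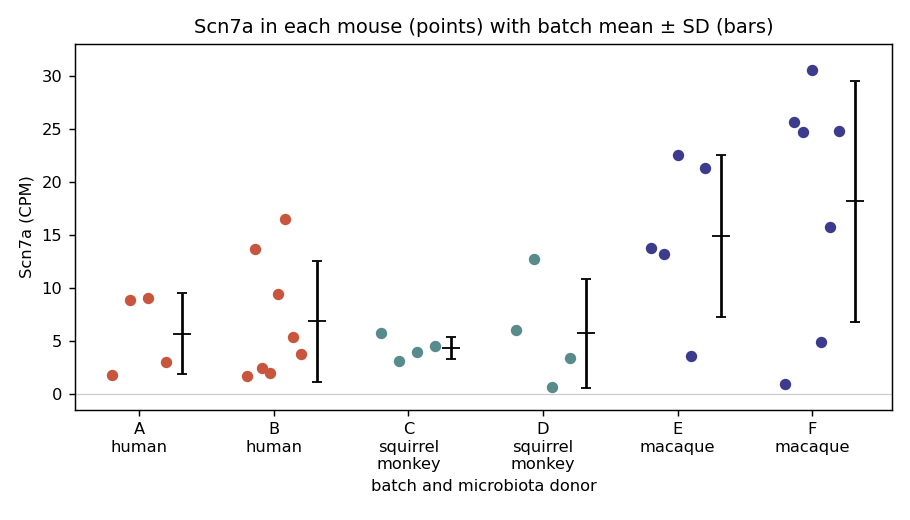
Scn7a in CPM (vertical axis) in each mouse (points) of the 6 batches (horizontal axis, coloured by microbiota donor), with the batch mean and SD as bars. Most macaque mice lie above 13 CPM, and 3 of them lie below 5 CPM among the human and squirrel monkey mice.

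The mean level of Scn7a was 6.46 ± 4.99 CPM in human mice (SD, n = 12), 5.01 ± 3.54 CPM in squirrel monkey mice (SD, n = 8) and 16.8 ± 9.71 CPM in macaque mice (SD, n = 12). The log2 fold change was -1.35 ± 0.35 (SE) in human against macaque mice and -1.82 ± 0.43 (SE) in squirrel monkey against macaque mice, comparisons that share the macaque mice. In the edgeR quasi-likelihood fit over 12651 genes, 1 of the 7 tested sodium channel genes, Scn7a, fell under the adjusted p of 0.05 in each, which is how it came to be picked and is no test of it. Over all genes 8.01% were called in human against macaque mice (4.47% higher, 3.54% lower) and 0.64% in squirrel monkey against macaque mice (0.387% higher, 0.253% lower), and since these comparisons chose the gene, nothing is read from that count.

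When each of the 32 mice was left out in turn, the log2 fold change of Scn7a ran from -1.58 to -1.247 in human against macaque mice and from -2.14 to -1.64 in squirrel monkey against macaque mice. Without batch F it was -1.14 in the former and -1.61 in the latter.

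The comparison of human with squirrel monkey mice did not choose the gene, but it shares both its groups with the comparisons that did. A small difference in it was therefore partly set by the choice. Between these groups Scn7a did not pass the test. Its log2 fold change was 0.47 ± 0.48 (SE; 95% interval -0.51 to 1.44; adjusted p = 0.811 by edgeR). With the library total as a covariate the value was -0.0616. The order of the group means was thus squirrel monkey, human and macaque, with the first 2 not separated beyond their spread.

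Batches of the same donor species did not separate Scn7a either, but its log2 fold changes had wide 95% intervals. They were -1.57 to 0.90 in A against B, -2.01 to 1.36 in C against D and -1.28 to 0.60 in E against F. The first 2 include -1.35, the value of human against macaque mice. Batch A had 5.67 ± 3.80 CPM (SD, n = 4) and batch B 6.85 ± 5.70 CPM (SD, n = 8), with -0.33 ± 0.61 as the log2 fold change (SE; adjusted p = 0.863 by edgeR). Batch C had 4.33 ± 1.08 CPM and batch D 5.70 ± 5.19 CPM (SD, n = 4 each), with -0.32 ± 0.83 as the log2 fold change (SE; adjusted p = 0.971 by edgeR), which was 0.35 without squirrel monkey mouse 6. Batch E had 14.9 ± 7.63 CPM (SD, n = 5) and batch F 18.2 ± 11.4 CPM (SD, n = 7), with -0.34 ± 0.46 as the log2 fold change (SE; adjusted p = 0.9999 by edgeR).

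The spread between mice of the same donor group was far wider for Scn7a than for genes at its level. Its biological coefficient of variation was 0.589, against a median of 0.178 for the 1385 genes at about its mean level, and 99.4% of those genes had a lower value. The other 6 tested sodium channel genes had 0.0855 to 0.120. Scn2a, with 0.0855, lay below the median of 0.100 of the 197 genes at its level, and 23.4% of those had a lower value.

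Marker levels of some cell types also differed between the donor groups. The 12 upper layer markers summed to 2422 to 3367 CPM in macaque mice, 1686 to 2997 CPM in human mice and 1935 to 2785 CPM in squirrel monkey mice, with a median log2 fold change of -0.26 in human and -0.35 in squirrel monkey against macaque mice. Of the 12, Lamp5 rose and Mef2c fell in the former and none was called in the latter. Oligodendrocyte markers summed to 679 to 3743 CPM in macaque mice, 779 to 10671 CPM in human mice and 904 to 5507 CPM in squirrel monkey mice, and 3 of 12 (Mog, Cldn11 and Mal) were called higher in human than in macaque mice, where 4.47% of all genes were. With the oligodendrocyte score as a covariate the log2 fold change of Scn7a was -0.98 in human and -1.32 in squirrel monkey against macaque mice. With the upper layer score it was -0.95 and -1.02, with the septum score -1.10 and -1.27, with the striatum score -1.15 and -1.72, and with the astrocyte score -1.26 and -1.58. In bulk tissue, fewer cells of a type and less RNA per cell cannot be told apart.

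The 4 other alpha subunits differed little between donor groups. Scn2a was 438 to 598 CPM in human mice with a median of 507, 433 to 536 CPM in squirrel monkey mice with a median of 452, and 442 to 549 CPM in macaque mice with a median of 511. All groups overlapped over most of their range, and the log2 fold change was 0.01 ± 0.05 in human and -0.09 ± 0.06 (SE) in squirrel monkey against macaque mice. Scn8a was 254 to 325 CPM in human, 239 to 336 CPM in squirrel monkey and 265 to 347 CPM in macaque mice, with medians of 287, 264 and 300.

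Of the 8 squirrel monkey mice, 4 had less Scn8a than any macaque mouse, 2 in batch C and 2 in batch D, and the log2 fold change was -0.13 ± 0.06 (SE). In human against macaque mice the Scn8a value was -0.05 ± 0.06 (SE). Scn1a was 64.1 to 95.6 CPM in human, 64.6 to 91.8 CPM in squirrel monkey and 57.8 to 120 CPM in macaque mice. The macaque range enclosed the others, and the log2 fold change was -0.13 ± 0.09 and -0.04 ± 0.10 (SE) in human and squirrel monkey against macaque mice.

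Scn3a, the embryonic form, had the second largest fold change of the alpha subunits in human against macaque mice. Its level was 82.9 to 127 CPM in human mice with a median of 102, 86.4 to 130 CPM in squirrel monkey mice with a median of 110, and 102 to 145 CPM in macaque mice with a median of 118. Of the 12 human mice, 6 lay below every macaque mouse, whereas 2 lay above the macaque median. The log2 fold change was -0.19 ± 0.07 in human and -0.10 ± 0.08 (SE) in squirrel monkey against macaque mice.

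**Figure D2:**
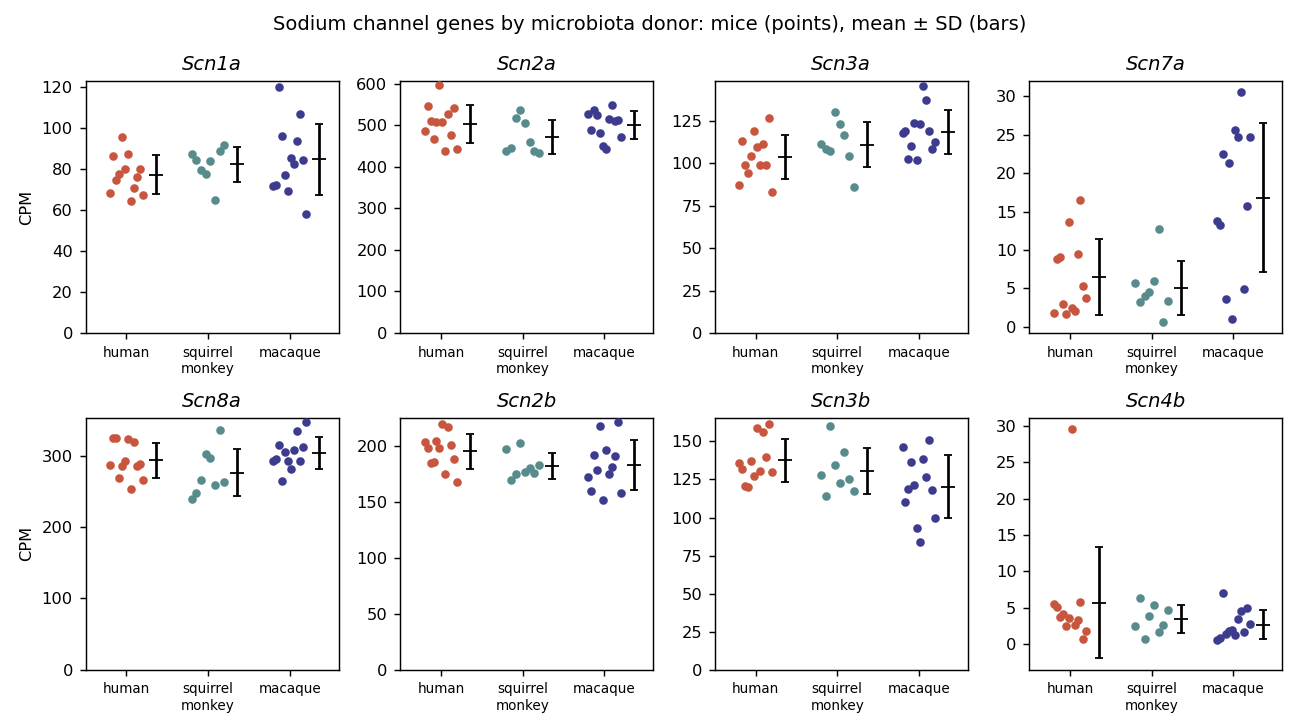
Levels of the 8 sodium channel genes in CPM (vertical axes, which differ between panels) by microbiota donor (horizontal axes); points are mice, bars the group mean and SD. In the Scn7a panel no human or squirrel monkey mouse lies above the macaque median. In the Scn3a panel 6 of 12 human and 1 of 8 squirrel monkey mice lie below every macaque mouse. In the Scn8a panel 1 of 12 human and 4 of 8 squirrel monkey mice do. The Scn4b panel shows 1 human mouse at 29.5 CPM.

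The beta subunits Scn2b and Scn3b lay slightly higher in human than in macaque mice. Scn3b was 120 to 162 CPM in human mice with a median of 134, 114 to 160 CPM in squirrel monkey mice with a median of 127, and 84.1 to 151 CPM in macaque mice with a median of 120. Of the human mice, 11 of 12 lay above the macaque median, yet the ranges overlapped, and the log2 fold change was 0.19 ± 0.08 (SE). In squirrel monkey against macaque mice it was 0.11 ± 0.09 (SE).

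Scn2b was 168 to 220 CPM in human, 169 to 203 CPM in squirrel monkey and 152 to 222 CPM in macaque mice, with log2 fold changes of 0.09 ± 0.06 and -0.01 ± 0.07 (SE). Of the human mice, 10 of 12 lay above the macaque median. Over the 7 tested genes the median log2 fold change was -0.05 in human and -0.09 in squirrel monkey against macaque mice, beside 0.00 over all tested genes in each.

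**Figure D3:**
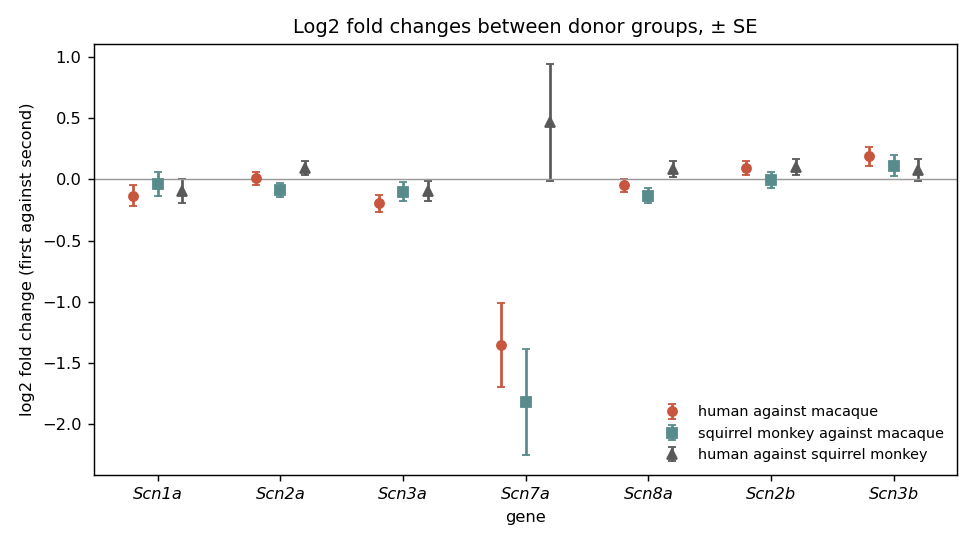
Log2 fold change (vertical axis) of the 7 tested sodium channel genes (horizontal axis) in the 3 comparisons between donor groups; error bars are the SE. Scn7a stands at -1.35 and -1.82 against macaque mice, and the other genes lie between -0.19 and 0.19.

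Scn4b stayed below the filter on low counts and is described by its level. It was 0.763 to 29.5 CPM in human mice with a median of 3.66, 0.788 to 6.29 CPM in squirrel monkey mice with a median of 3.26, and 0.627 to 6.996 CPM in macaque mice with a median of 1.91. The highest value, 29.5 CPM (61 counts), came from human mouse 7, and the next of the human mice was at 5.84 CPM. Human mouse 7 was also the highest of all human mice for the striatal markers Penk (210 CPM), Ppp1r1b (199 CPM), Tac1 (126 CPM) and Pde10a (124 CPM).

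The correlation of Scn4b with the striatal marker score over 32 mice, with donor group means removed, was r = 0.600 (permutation p = 0.0292; adjusted p = 0.140 over 144 relations; rho = 0.217, permutation p = 0.224) and r = 0.0936 without human mouse 7 and macaque mouse 3. It rested on those mice. Scn4b is known as a gene of striatal projection neurons, and the part of striatal tissue in this library was not tested.

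In human against squirrel monkey mice, 0 of the 7 tested sodium channel genes were called by edgeR, where 0.134% of all genes (17; 0.0158% higher, 0.119% lower) were called and 1267 had an unadjusted p under 0.05. None of the 7 had an unadjusted p under 0.05 there. The fold change nearest to the threshold belonged to Scn2a, at 0.10 ± 0.06 (SE; 95% interval -0.02 to 0.21; adjusted p = 0.613). The values of Scn2b (0.10), Scn8a (0.09), Scn3b (0.08), Scn1a (-0.09) and Scn3a (-0.09) had intervals within -0.29 to 0.25.

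Between batches of the same donor species, 0 of the 7 genes were called. The background was 3 genes (0.0237%) in batch A against B, with 1473 genes at an unadjusted p under 0.05, and 0 genes in C against D and in E against F, with 883 and 399 at an unadjusted p under 0.05. DESeq2 and limma voom also called 0 genes in the latter comparisons. The fold changes of the 6 tested genes other than Scn7a lay between -0.16 (Scn3b, batch A against B) and 0.13 (Scn3b, batch E against F).

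The genes varied together between mice of the same donor group to different degrees. Of 28 pairs, 25 had a positive r and 2 passed an adjusted p of 0.05 by r and by rho, both with Scn2a. Scn2a and Scn3a had r = 0.592 over 32 mice (permutation p = 0.00085, adjusted p = 0.0179; rho = 0.579, permutation p = 0.00114, adjusted p = 0.021) and r = 0.573 without human mice 6 and 8, the mice farthest from the Scn2a median. Within donor groups r was 0.806 in human, 0.672 in squirrel monkey and 0.195 in macaque mice, and within the batches of at least 6 mice it was 0.844 in B and 0.553 in F.

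Scn2a and the beta subunit gene Scn3b had r = 0.523 (permutation p = 0.00128, adjusted p = 0.0179; rho = 0.544, permutation p = 0.0015, adjusted p = 0.021) and r = 0.634 without the same mice. Here the macaque mice had the highest r, 0.810, against 0.236 in human and 0.553 in squirrel monkey mice, and the batches B and F had 0.267 and 0.846. With batch means in place of donor group means removed, r was 0.516, and this pair no longer passed. Differences in r between groups were not tested. Scn7a had r between -0.0906 and 0.443 with the other 7 genes, and none of those pairs passed.

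Scn2a, Scn3a and Scn7a went with markers of cell composition between mice of the same donor group. Each was higher in mice with a higher upper layer score (mean log2 level of 12 genes, Cux1, Cux2 and Rorb among them), with r = 0.548 for Scn2a (permutation p = 0.0022, adjusted p = 0.0198; rho = 0.566, permutation p = 0.00142), r = 0.618 for Scn3a (permutation p = 0.00026, adjusted p = 0.00468; rho = 0.588, permutation p = 0.00094) and r = 0.553 for Scn7a (permutation p = 0.00144, adjusted p = 0.0149; rho = 0.617, permutation p = 0.00037). All 3 were positive within each donor group, 0.399 to 0.713 for Scn2a, 0.424 to 0.732 for Scn3a and 0.476 to 0.671 for Scn7a. Without the 2 mice farthest from each gene's median r was 0.578, 0.520 and 0.568.

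Scn2a was lower in mice with more signal of several non-neuronal cell types. It had r = -0.727 with endothelial and mural markers (permutation p = 4e-05, adjusted p = 0.00259; rho = -0.768, permutation p = 2e-05), r = -0.721 with meningeal fibroblast markers (permutation p = 4e-05, adjusted p = 0.00259; rho = -0.719, permutation p = 7e-05), and r = -0.612 to -0.667 with oligodendrocyte precursor, astrocyte and microglia markers. The endothelial relation was -0.648 in human, -0.891 in squirrel monkey and -0.683 in macaque mice, -0.649 in batch B and -0.809 in batch F, and -0.700 without human mice 6 and 8. Scn2a did not pass with oligodendrocyte (r = -0.401, permutation p = 0.0368, adjusted p = 0.151) or choroid plexus and ependymal markers (r = -0.279, permutation p = 0.144). Nor did it pass with excitatory neuron markers (r = 0.0935, permutation p = 0.616). Scn3a went against oligodendrocyte markers with r = -0.657 (permutation p = 7e-05, adjusted p = 0.00259; rho = -0.545, permutation p = 0.00206), which was -0.677 in batch B, -0.808 in batch F, and -0.537 without squirrel monkey mouse 8 and human mouse 12.

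Scn7a went against astrocyte markers with r = -0.657 (permutation p = 9e-05, adjusted p = 0.00259; rho = -0.587, permutation p = 0.00087). The relation was -0.821 in human, -0.761 in macaque and -0.0703 in squirrel monkey mice. It was -0.845 in batch B and -0.748 in batch F, and -0.555 without macaque mice 4 and 6. Scn7a counts were 2 to 31 in human, 1 to 47 in macaque and 1 to 15 in squirrel monkey mice. Why r differed between the groups was not tested. Choroid plexus and ependymal markers, of the cells that line the ventricles, had r = -0.0368 with Scn7a and did not pass. Scn7a was also lower with higher scores of meningeal (r = -0.570), septal (r = -0.537) and endothelial markers (r = -0.535). In this order r was -0.800, -0.758 and -0.865 in human mice and -0.598, -0.478 and -0.517 in macaque mice. In squirrel monkey mice it was weaker, at -0.126, -0.256 and -0.150. Scn7a was higher with a higher score of claustrum and endopiriform markers (r = 0.470, adjusted p = 0.0452), a list that holds Synpr. That relation did not pass by rho (0.451, adjusted p = 0.0723) and was -0.105 in macaque mice.

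In all, 18 of 144 relations of a gene with a score passed by r and 17 of these also by rho. They fell to Scn2a (7), Scn7a (6), Scn3a (4) and Scn8a (1, with oligodendrocyte precursor markers, r = -0.491, adjusted p = 0.0485). With library totals alone as the scaling, the Scn8a relation (r = -0.467) and that of Scn2a with septal markers (r = -0.488) no longer passed. None of Scn1a, Scn2b, Scn3b and Scn4b had a relation that passed by r. By rho but not by r, Scn8a also passed with astrocyte markers (rho = -0.503, permutation p = 0.00421, adjusted p = 0.0303). The same held for Scn8a with endothelial and mural markers (rho = -0.521, permutation p = 0.00393, adjusted p = 0.0298). It also held for Scn7a with general interneuron markers (rho = -0.527, permutation p = 0.00318, adjusted p = 0.0254). Scores and genes come from the same libraries, each scaled to its total, so that a larger share for one cell type leaves less for the others.

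**Figure D4:**
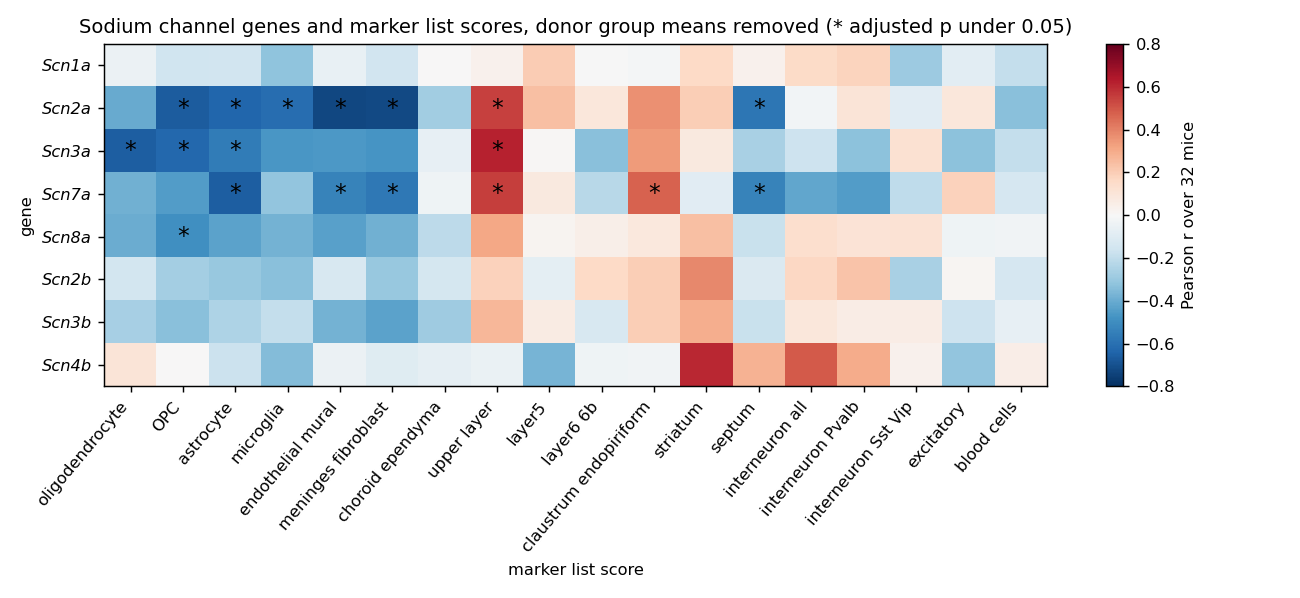
Pearson r over 32 mice, with donor group means removed, between each sodium channel gene (rows) and the score of each marker list (columns); stars mark an adjusted p under 0.05. Scn2a, Scn3a and Scn7a are positive with upper layer markers and negative with markers of glia, vessels or meninges.

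The genes whose levels ran most alike with Scn7a, of 12595 ranked by r with donor group means removed over 32 mice, were Deptor (r = 0.802, rho = 0.801), Synpr (r = 0.788, rho = 0.803), Nrxn3 (r = 0.755), Lsamp (r = 0.753) and Galnt17 (r = 0.743). Deptor encodes an inhibitor of mTOR and Synpr the synaptic vesicle protein synaptoporin. Deptor is also in the list of layer 5 markers, whose score had r = 0.0779 with Scn7a (permutation p = 0.682) and did not pass. Deptor, Synpr, Nrxn3 and Lsamp overlap unnamed models on the opposite strand, so that their counts are uncertain where counting ignored strand. Macaque mice 6, 4 and 10, with the lowest Scn7a of their group, were also the lowest of it in Deptor, at 27.3, 34.0 and 34.2 CPM where the macaque median was 54.2. In human mouse 10, with the highest Scn7a of its group, Deptor was at 46.2 CPM, above the human median of 40.8 but below the human maximum of 60.4.

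Among the most alike to Scn2a were Elavl2 (r = 0.733) and Fbxw7 (0.716), and for Scn3a the most alike were Klhdc8b (0.713), Dpp10 (0.683) and Arpp21 (0.679). For Scn8a they were Ttc7 (0.725), Adgrl3 (0.687) and Sipa1l1 (0.659), and for Scn1a they were Zfp946 (0.674), Armh4 (0.613) and Mrps9 (0.591). For the beta subunits they were Ankrd50 (0.680), Slc1a1 (0.678) and Clstn3 (0.669) with Scn2b, Fam49a (0.765), Jkamp (0.709) and Minpp1 (0.643) with Scn3b, and Zfhx3 (0.689), Atp2b2 (0.673) and Prmt8 (0.669) with Scn4b. These are the top of many ranked values and are given with no p. None of the other sodium channel genes was among these. Klhdc8b, Arpp21, Adgrl3, Slc1a1, Fam49a, Jkamp and Minpp1 share a stretch of their 3′ end with other genes, so their counts are uncertain. Several genes of this paragraph also overlap another gene on the opposite strand.

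**Figure D5:**
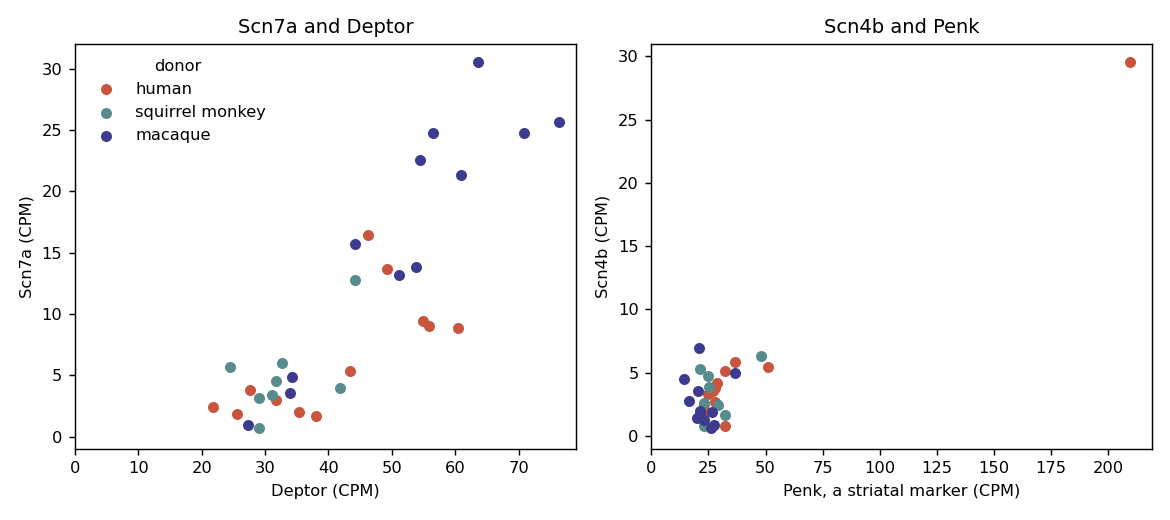
Left, Scn7a against Deptor, and right, Scn4b against the striatal marker Penk, in CPM; each point is a mouse, coloured by microbiota donor. Deptor is shown because it had the highest r with Scn7a of 12595 genes ranked, with donor group means removed. The human mouse highest in Scn7a was not the highest in Deptor. Human mouse 7 stands alone at 29.5 CPM of Scn4b and 210 CPM of Penk.

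The other sodium channel genes of the table were at most weakly different. Of 9 listed in it, 5 were tested and 0 were called in any comparison. They include Scn9a, which encodes Nav1.7 and lies beside Scn7a, the leak channel Nalcn and its partners Unc79 and Unc80. Scn9a was 6.62 ± 2.03 CPM in human mice (SD, n = 12), 8.23 ± 1.84 CPM in squirrel monkey mice (SD, n = 8) and 9.41 ± 3.61 CPM in macaque mice (SD, n = 12), with -0.49 ± 0.18 as the log2 fold change in human against macaque mice (SE; adjusted p = 0.0889 by edgeR). Unc80 had -0.18 ± 0.07 there (SE; adjusted p = 0.135 by edgeR). Scn9a overlaps unnamed models on the opposite and on the same strand, so its counts are uncertain. Among 8 tested neighbours of the chromosome 2 cluster, Scn9a, Csrnp3 and Ttc21b among them, 0 were called in any comparison.

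Of 15 genes of sodium pumps and exchangers, 2 fell in human against macaque mice, Slc8a1 and Atp1b1, and 12 did not pass, where 3.54% of all genes fell, with a median of 0.00 as over all genes.

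Slc8a1, a sodium-calcium exchanger, fell by 0.30 ± 0.08 on the log2 scale (SE; adjusted p = 0.0101 by edgeR) from 334 ± 57.2 to 271 ± 18.8 CPM, a call lost without batch A, B or F. Atp1b1, the pump's beta subunit, fell by 0.24 ± 0.07 (SE; adjusted p = 0.0259 by edgeR), and lost the call in 5 of 21 other settings (without batch A, E or F, with the library total as a covariate and with only the compared groups) and without macaque mouse 3 or 12. Atp1b1 overlaps Nme7 on the opposite strand and shares a stretch of its 3′ end with it, and Slc8a1 overlaps unnamed models on the opposite strand, so their counts are uncertain.

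Among 16 tested genes of the axon initial segment and node, 1 rose and 1 fell in human against macaque mice, shares near the 4.47% and 3.54% of all genes, with a median log2 fold change of -0.05. Tubb3, a neuronal tubulin, fell by 0.23 ± 0.06 on the log2 scale (SE; adjusted p = 0.0157 by edgeR), a call lost in 4 of 21 other settings (without batch A or E, on counts summed per batch and with the oligodendrocyte score). Cntn2, an adhesion protein of nodes and myelin, rose by 0.51 ± 0.17 (SE; adjusted p = 0.0475 by edgeR), a call lost in 14 of 21 other settings and in 20 of 32 removals of a mouse (human mice 1, 4, 7 and 12, all squirrel monkey mice but 5 and 8, all macaque mice but 7 and 11), and its value was 0.14 with the oligodendrocyte score as a covariate. Ank3, which encodes the ankyrin that holds the channels at the initial segment, had 0.19 ± 0.06 (SE) and did not pass (adjusted p = 0.0567 by edgeR).

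Of 24 tested genes of channel binding and turnover, 1 fell in human against macaque mice and 23 did not pass, a share near the 3.54% of all genes that fell. Nedd4, a ubiquitin ligase, fell by 0.18 ± 0.05 on the log2 scale (SE; adjusted p = 0.0146 by edgeR), from 428 ± 25.0 to 378 ± 33.5 CPM (SD, n = 12 each). The Nedd4 call was lost in 6 of 21 other settings (without batch A, E or F, with the library total or striatum score, and on counts summed per batch). Of 13 genes of splicing and transcription regulators, 2 fell in human against macaque mice, where 3.54% of all genes did: the RNA-binding proteins Celf4, by 0.18 ± 0.06 (SE; adjusted p = 0.0339 by edgeR), and Pum2, by 0.19 ± 0.06 (SE; adjusted p = 0.0345 by edgeR). Celf4 lost the call in 12 of 21 other settings and without human mouse 1, 4, 7 or 8 or macaque mouse 3, 5 or 9. Pum2 lost it in 13 of 21 settings and without human mouse 2 or 7 or macaque mouse 8, 9, 11 or 12. Celf4 overlaps unnamed models on the opposite strand, and Nedd4 and Tubb3 overlap some on the same strand, so their counts are uncertain.

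Pum2, whose fly homologue Pumilio represses sodium channel mRNA, also fell in squirrel monkey against macaque mice, by 0.28 ± 0.07 (SE; adjusted p = 0.0321 by edgeR), where 0.253% of all genes did. This call was lost in 9 of 21 other settings, batches C, D and F left out among them, and without squirrel monkey mouse 1, 2, 3, 7 or 8 or macaque mouse 8, 9, 11 or 12. Its fold change without batch F was -0.06 in human and -0.14 in squirrel monkey against macaque mice. In squirrel monkey against macaque mice no other gene of these lists was called, and 0 were called in human against squirrel monkey mice.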

How the data were processed

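Gene counts from tag-based RNA sequencing of 32 mice were used as the authors deposited them, 1 raw count per gene and mouse. Per the submitters' processing notes the build was GRCm39; per the file headers nothing more is recorded, and the sources used here do not give the aligner, counter or use of strand. Of the table's columns, 3 matched no sample and were not used, and 76 rows without a gene symbol held 0.031% of the counts. No libraries were identical. The labels do not say that mice of a group were housed apart, so p-values measure the spread between these mice.

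Genes were filtered with edgeR 4.0.16 (minimum count 10, minimum total 15, by donor group), which left 12651, scaled by TMM (factors 0.955 to 1.04) and tested with glmQLFTest (R 4.3.3), with Benjamini-Hochberg adjustment over all tested genes and a threshold of 0.05. The SE of a log2 fold change came from its F statistic. CPM are TMM-scaled; scores are mean log2 CPM (prior count 2) of a marker list. Correlations used values with donor group means removed, and 100000 two-sided permutations within donor groups, adjusted over 28 pairs or 144 relations with 18 scores. limma 3.58.1 and DESeq2 1.42.0 served as alternatives. Figures and correlations used Python 3.11.15. The fit was tested on simulated data. Shared 3′ ends were searched with blastn 2.17.0 over the last 300 bases of each gene. The annotation used for neighbours is of an earlier build than the counts, so gene coordinates are not given.

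The sodium channel genes and all lists were chosen with earlier results of these data known. Named genes are all 8 channel genes, the genes most alike to each (mean of at least 5 CPM), and list genes past the threshold; Scn9a, Unc80 and Ank3 were named after their values were seen. A few genes that the rule names are not reported here.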

Additional observations from a re-analysis of the deposited data

Results flagged for a closer look

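Of 56 sets of 4 to 10 mice examined for a mouse far from the others by the gap-to-range ratio, 3 held one, and chance alone gives about 1 in 20. Among the squirrel monkey mice, mouse 6 had 12.8 CPM of Scn7a, with 5.99 CPM as the nearest. In batch B, human mouse 7 had 29.5 CPM of Scn4b, with 5.84 CPM as the nearest. In batch E, macaque mouse 3 had 6.996 CPM of Scn4b, with 1.88 CPM as the nearest.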

How the results depend on the processing

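No paired analysis was possible because the labels give no shared replicate numbers. The depth of 1035036 to 2089308 counts per mouse limits Scn7a and Scn4b most. Covariates for upper layer, astrocyte and septum scores and removal of human mouse 7 were chosen after seeing the data. The causes of the changes below were not tested, beyond fewer mice where a batch is left out.

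In human against macaque mice, 574 genes were called with the library total as a covariate, 556 with the striatum score, 506 on counts summed per batch, and 479, 392 and 336 without batch A, E and F. Scn7a was picked in the comparisons against macaque mice, so its side of the threshold there says nothing about stability. It was no longer past it with the oligodendrocyte score (-0.98) or striatum score (-1.15) as a covariate and without batch A (-1.249) or F (-1.14), where 0 sodium channel genes were called. In squirrel monkey against macaque mice, 156 genes were called by DESeq2, 292 by limma voom, 25 with the oligodendrocyte score, 203 on batch sums, 178 with only these groups, 144, 2, 11 and 0 without batch B, C, E and F, 15 with the upper layer and 19 with the septum score. Scn7a was no longer past the threshold there with the oligodendrocyte (-1.32), striatum (-1.72), upper layer (-1.02) and septum (-1.27) scores, with 6 batches as fixed levels (-1.79), and without batch C (-1.67), D (-1.99), E (-1.95) or F (-1.61), with 0 sodium channel genes called.

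In human against squirrel monkey mice, 1 gene was called with no filter, 97 by DESeq2, 80 by limma voom, 1 with the library total, 28 with the oligodendrocyte, 2 with the striatum and 49 with the astrocyte score, 46 with 6 batches as fixed levels, 1 on batch sums, 1 with only these groups, and 3, 57, 64, 1, 2 and 4 without batch A to F. Reversed there were Scn7a with the library total (-0.0616) and Scn3b without batch B (-0.0391). In batch A against B, 0 genes were called with totals alone, 6 with no filter, 10 by DESeq2, 1 with the striatum, 5 with the upper layer and 19 with the astrocyte score. Scn7a turned in A against B with the oligodendrocyte (0.18) and astrocyte (0.0606) scores, and in C against D by limma voom (0.26) and with the oligodendrocyte score (0.0659). With library totals alone, Scn2a with septal (r = -0.488) and Scn8a with oligodendrocyte precursor markers (r = -0.467) no longer passed. With batch means removed, 1 pair of sodium channel genes passed and Scn7a with claustrum markers (r = 0.483) did not.

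Leaving out 1 mouse at a time gave 772 to 1153 genes called in human against macaque, 24 to 137 in squirrel monkey against macaque, 2 to 72 in human against squirrel monkey and 0 to 5 in batch A against B. Sodium channel genes called ranged from 1 to 2 in the first (Scn3a as the other, without human mouse 11) and from 0 to 1 in the second (0 without squirrel monkey mouse 1, 2, 3, 4, 7 or 8 or macaque mouse 3, 5, 8, 9 or 12). Scn7a ranged from -1.58 to -1.247, from -2.14 to -1.64 and from 0.24 to 0.78 in these donor comparisons, from -0.71 to -0.02 in A against B, from -0.71 to 0.35 in C against D and from -0.52 to -0.09 in E against F.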
